A study of Mus musculus with 4 samples.

Results

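The comparison described here is the colon of an Adamts12-deficient (KO) mouse after dextran sodium sulfate (DSS) minus the colon of a wild-type (WT) mouse after the same treatment. It was chosen by the array titles and uses 2 of the 4 arrays of the study, with 1 array a side. Total RNA of the distal colon was measured on Affymetrix mouse arrays, and the other 2 arrays are a WT and a KO mouse without treatment. Treatment began at an age of 8 to 10 weeks. The DSS groups drank water with 2% DSS, for 7 days by the series text and for 8 days by the treatment protocol, and then had 1 day without it. The labels give the genotypes only as Adamts12 WT and Adamts12 KO. The sources used here do not give strain, sex, the deleted part of the gene or the kinship of the mice.

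ADAMTS12 is a secreted zinc metalloprotease with thrombospondin repeats, made mainly by fibroblasts and other mesenchymal cells, which cleaves matrix proteins such as cartilage oligomeric matrix protein. DSS strips and injures the colonic epithelium, so that luminal bacteria reach the lamina propria, neutrophils and monocytes enter, and fibroblasts and surviving crypts start repair. The comparison addresses whether the DSS-treated colon differs when the protease is absent.

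Each value is the deposited log2 signal of a probe set, so a difference of 1 is 2-fold. Probe sets brighter than the median of their array in any of the 4 samples were kept, and the brightest of these stood for its gene, for 12189 genes. Because each group is 1 array, no difference has a replicate check, none was tested, and the number of arrays limits the precision. As a gauge of the spread between probes alone, kept probe sets of a gene gave KO minus WT differences with a pooled SD of 0.26 over 5418 genes. Every colon sample is a mixture of cells, and more or fewer cells of a type and more or less RNA per cell cannot be told apart.

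All 4 arrays carried the epithelial markers of the labelled tissue. Epcam had values of 11.28 and 11.51 on the untreated WT and KO arrays, 11.17 on the WT DSS array and 10.98 on the KO DSS array. The villin gene Vil1 had 9.41 with DSS in WT and 9.30 in KO. Housekeeping genes lay close together, with Actb at 12.52 in WT and 12.54 in KO and a median difference of 0.03 over 15 genes. The 11 Y-linked probe sets reached at most 1.68, and Xist lay between 9.68 and 10.06 on all 4 arrays. The value 1.68 serves below as a background limit, and a difference from a value at or under it is given as a bound.

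Adamts12 itself was dim on every array and was not among the kept genes. Its brighter probe set had 2.18 and 1.42 in untreated WT and KO colon, and 2.18 and 1.41 in WT and KO colon with DSS. Both KO values lay under the background limit and both WT values just above it. The other probe set lay between 0.71 and 0.97 on the 4 arrays, under the limit in both genotypes. Their place relative to the deleted part is unknown, and a probe outside it checks nothing about the deletion. Of 15 kept genes within 12 protein-coding genes of Adamts12 on either side, 0 were at least 2-fold higher and 1 was at least 2-fold lower, which was Amacr, a racemase of branched-chain fatty acid breakdown, at 4.13 in WT and 2.93 in KO with DSS.

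With DSS, 514 genes were at least 2-fold higher in the KO (4.22% of those measured) and 147 were at least 2-fold lower (1.21%). The median difference was -0.02, and the 5th and 95th percentiles were -0.56 and 0.91, so the upper tail was the longer one. At least 4-fold differences numbered 72 higher and 25 lower, and at least 8-fold differences 15 and 9. The share of genes at least 2-fold higher was 5.85% among the dimmest genes and 2.46% among the brightest, with the genes cut into 3 equal classes by level. The untreated pair had 418 genes at least 2-fold higher in the KO (3.43%) and 730 lower (5.99%), which is more genes apart and the opposite lean.

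**Figure D1:**
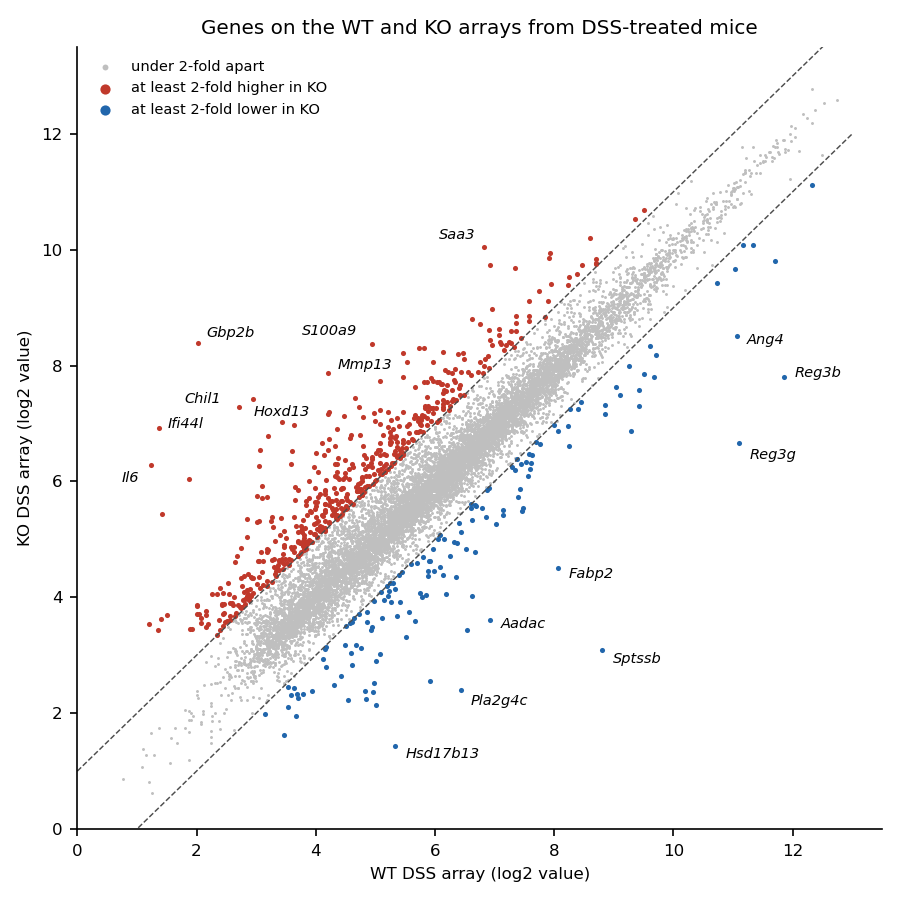
Each point is 1 of 12189 genes, with its log2 value on the WT DSS array on the x axis and on the KO DSS array on the y axis. Dashed lines mark 2-fold differences, and the 514 red and 147 blue genes lie beyond them.

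Among the 514 higher genes the KO DSS array was most often the one that stood apart. It was at least 2-fold above all the other 3 arrays for 226 of them (44.0%), while the WT DSS array was at least 2-fold below all others for 18 (3.5%). For 465 (90.5%) the KO DSS value lay above both untreated values. Among the 147 lower genes, the KO DSS array was at least 2-fold below all others for 57 (38.8%), and the WT DSS array at least 2-fold above all others for 20 (13.6%). The filter acts here too, since 149 genes were kept only through the KO DSS array and 66 of these were among the higher ones. Of the gene lists below, the neutrophil list held 5 such members, and the endothelial and enteric lists 3 each. The T and NK, mast cell and eosinophil, chemokine receptor and acute-phase lists held 2 each. The B cell, dendritic cell, CXC, CC, gp130, TNF, matrix protease and plasmin lists held 1 each. So did the fibroblast, stromal signal, fetal-like, enteroendocrine, sphingolipid, hypoxia, immediate-early and clock lists.

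**Figure D2:**
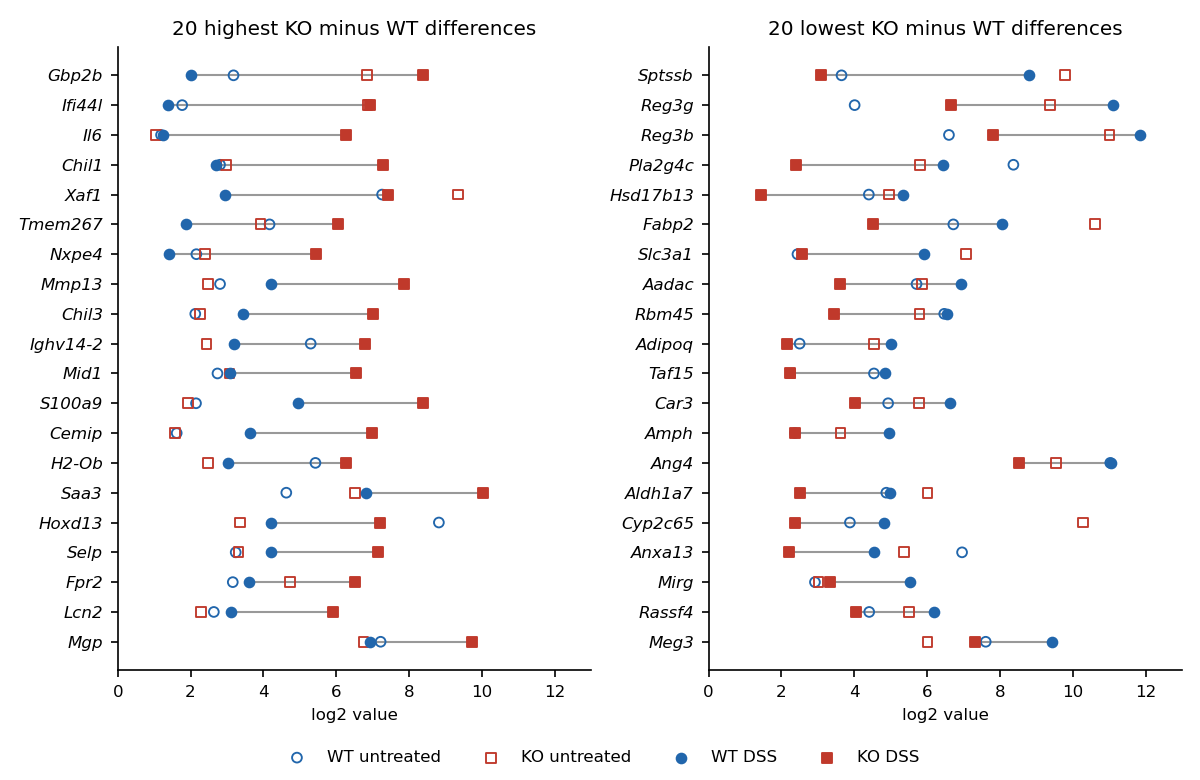
Log2 values (x axis) of the 20 genes with the highest and the 20 with the lowest KO minus WT difference under DSS, on all 4 arrays. Circles are WT and squares KO, open symbols are untreated, filled symbols DSS, and grey lines join the DSS pair. Il6 and Chil1 have 3 arrays close together and 1 apart, whereas Reg3g has high WT DSS and untreated KO values.

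Many neutrophil genes had higher values in the KO colon. Of 14 kept neutrophil genes, 9 were 2-fold or more higher and 1 lower, with a median of 1.33 against -0.02 over all genes. S100a9, a subunit of the calcium-binding protein calprotectin, had 2.15 and 1.94 on the untreated WT and KO arrays, 4.95 with DSS in WT and 8.38 with DSS in KO. Its partner S100a8 had 1.61 and 1.89 untreated, 5.81 in WT and 8.30 in KO with DSS. Both were thus already above the untreated arrays in the WT DSS colon and higher again in the KO. Fpr2, a receptor for bacterial formyl peptides, was higher by 2.92, and the pattern receptor Clec4e of myeloid cells by 2.73. Lcn2, which withholds iron from bacteria, had 3.10 in WT and 5.92 in KO. Cd177 was lower, at 8.85 in WT and 7.32 in KO. On the untreated arrays it had 9.69 and 8.95.

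Not every neutrophil gene shared this pattern. Of 21 list members on the array, 7 were not kept, and over all 21 the median difference was 0.56. The granule peroxidase gene Mpo lay near the background limit, at 1.74 in WT and 1.93 in KO with DSS, and the chemokine receptor gene Cxcr2 had 2.33 in both. Other granule genes were brighter but alike in the pair, with the lactoferrin gene Ltf at 4.36 in WT and 4.49 in KO. The receptor gene Csf3r had 3.82 in WT and 4.80 in KO. Of the 9 kept members that were at least 2-fold higher, 5 exceeded the median of their array in the DSS-treated KO colon alone. These were Lcn2, Clec4d, Clec4e, Mmp8 and Trem1. Their place in the kept list thus rested on the array where they were high, and the kept median of 1.33 includes them. The summed linear signal of the kept list was 665 in WT and 1176 in KO with DSS, and 911 and 615 untreated. S100a9 and S100a8 were the brightest kept members on the KO DSS array, and Cd177 was the brightest on the other 3 arrays. Cd177 alone held most of the sum on those 3 arrays, at 9.69 and 8.95 untreated and 8.85 in WT with DSS. The sums therefore do not compare the other members of the list.

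Pan-leukocyte and integrin genes also had higher values. Of 20 kept genes, 12 were higher by 2-fold or more and 0 lower, with a median of 1.09, and the KO DSS value was the highest of the 4 arrays for 16. Ptprc, which encodes the leukocyte common antigen CD45, had 8.24 and 7.61 untreated, 7.36 in WT and 8.85 in KO with DSS. The actin regulator Coro1a had 7.28 and 6.76 untreated, 6.34 in WT and 7.95 in KO with DSS. For both genes the WT DSS colon had the lowest of the 4 values and the KO DSS colon the highest. Macrophage markers had a lower median. Of 20 kept, 3 were at least 2-fold higher, with a median of 0.11, and Adgre1, which encodes F4/80, lay at 4.02 and 4.34. The 3 were the chitinase-like gene Chil3, at 3.43 in WT and 7.02 in KO, and the scavenger and mannose receptor genes Msr1 and Mrc1, higher by 1.18 and 1.13. T and NK cell genes had a median of 0.32, or 0.22 over all 30 on the array, with 4 of 24 at least 2-fold higher and Cd3e at 4.75 and 4.53.

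B cell and follicle genes had the highest median of the 62 lists with the filter used here, and the neutrophil list ranked above it, at 2.77 against 2.21, with a filter at the 75th percentile. Of 20 kept, 17 were at least 2-fold higher in the KO with DSS and 0 lower, with a median of 1.95. Ms4a1, which encodes CD20, had 6.66 on the untreated WT array and 4.10 on the untreated KO array, 4.72 with DSS in WT and 7.29 with DSS in KO. Cd79a, a signalling chain of the B cell receptor, had 5.87 and 4.37 untreated, 4.60 in WT and 6.81 in KO with DSS. Cr2, the complement receptor of B cells and follicular dendritic cells, was higher by 2.51. So the untreated WT and KO DSS arrays were the high ones and the untreated KO and WT DSS arrays the low ones. In the untreated pair the same 20 genes had a median of -1.26, with 12 at least 2-fold lower. The summed signal was 1461 and 815 untreated, and 971 in WT and 2475 in KO with DSS. Whether the tissue pieces held different numbers of lymphoid follicles was not tested. Plasma cell genes lay closer together, with 1 of 14 at least 2-fold higher, 1 lower, a median of 0.42 and the joining chain Jchain at 10.04 and 10.79.

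Class II presentation genes were all above 0, at 14 of 14 with a median of 0.71, and 3 were at least 2-fold higher. Those were H2-Ob and H2-Oa, which modulate peptide loading mainly in B cells, higher by 3.22 and 2.24, and H2-DMb2. The widely expressed H2-Aa had 9.54 and 10.15 untreated, 8.77 in WT and 9.47 in KO with DSS. Its KO DSS value thus lay below both untreated values. In the untreated pair the list had a median of 0.43, with 2 genes at least 2-fold higher and 1 lower. Class I and immunoproteasome genes had a median of 0.11, with 0 of 16 at least 2-fold apart.

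Most CXC chemokines, which draw neutrophils and T cells, had higher values in the KO. The CXC list also holds Cx3cl1, a CX3C chemokine, at 5.73 in WT and 5.80 in KO. Of the 13 kept genes of the list, 9 were at least 2-fold higher and 0 lower. The median was 1.27, or 1.15 over all 15 on the array, and the KO DSS value was the highest of the 4 for 12. Cxcl10, an interferon-induced attractant of T cells, had 5.87 and 6.49 untreated, 5.74 in WT and 8.30 in KO with DSS. Cxcl2, an attractant of neutrophils, had 2.48 and 2.10 untreated, 5.86 in WT and 7.72 in KO. Cxcl5, which also binds the neutrophil receptor CXCR2, had 7.28 in WT and 8.60 in KO, against 2.70 and 0.93 untreated. For Cxcl2 and Cxcl5 the DSS arrays were thus both above the untreated ones, and for Cxcl10 the KO DSS array alone was. Of 14 kept CC chemokines, 4 were at least 2-fold higher, with a median of 0.55, or 0.14 over all 18 on the array. Ccl11, the eosinophil attractant eotaxin, had 4.56 and 4.34 untreated, 4.48 in WT and 7.13 in KO with DSS. The monocyte attractant Ccl2 was at 3.70 in WT and 5.85 in KO.

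Several cytokines that signal through gp130, and the STAT3 feedback gene Socs3, had higher values in the KO. Of 17 kept, 7 were at least 2-fold higher and 0 lower, with a median of 0.67, and Il6 was kept only through the KO DSS array. Il6 had 1.19 and 1.05 untreated, 1.24 in WT and 6.28 in KO with DSS, so it was under the background limit on 3 arrays and the difference is at least 4.60. Il11, a stromal cytokine, had 3.96 and 4.14 untreated, 4.66 in WT and 7.44 in KO. Socs3 had 8.24 in WT and 9.40 in KO, against 5.73 and 7.07 untreated. In the interleukin-1 family, 6 of 15 were at least 2-fold higher and the median was 0.31. Il1b had 6.07 in WT and 7.72 in KO, and the alarmin Il33 had 5.07 and 7.74. Csf3, which drives neutrophil production, had 2.74 in WT and 4.86 in KO, and was kept only through the KO DSS array. The T cell cytokine Il17a was not kept and lay at 2.08 and 2.34, and Tnf lay at 4.55 and 5.16.

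Receptors and signalling genes around these ligands mostly lay under 2-fold apart. Of 13 kept chemokine receptors, 6 were at least 2-fold higher and 0 lower, with a median of 0.71, or 0.23 over all 20 on the array, and 2 were kept only through the KO DSS array. Ccr1, a receptor of monocytes and neutrophils, had 4.24 and 4.01 untreated, 4.01 in WT and 5.38 in KO with DSS. The scavenging receptor Ackr3 had 4.74 in WT and 6.81 in KO. Of 23 kept TNF ligands and receptors, 5 were at least 2-fold higher, with a median of 0.34, or 0.16 over all 35 on the array. Among them were Tnfrsf13c, the BAFF receptor of B cells, at 3.02 and 5.30, and Ltb, which organises lymphoid tissue, at 4.81 and 6.46. Of 19 NF-kB pathway and target genes, 5 were at least 2-fold higher and the median was 0.43. The inhibitor Nfkbie had 4.49 in WT and 6.07 in KO, while Nfkbia, the main inhibitor of the pathway, had 10.22 and 10.72. Microbe sensors differed little, with 1 of 16 at least 2-fold higher and a median of 0.14. That one was Clec7a, the fungal glucan receptor dectin-1, at 5.07 in WT and 7.23 in KO. Complement genes had 5 of 15 at least 2-fold higher and a median of 0.22, or 0.15 over all 19, with the protease gene C1s1 at 6.44 and 7.89. Mast cell and eosinophil genes had 2 of 7 at least 2-fold higher, and dendritic cell genes 3 of 8, with medians of 0.24 and 0.33, or 0.10 and 0.15 over all members on the array. The mast cell receptor Kit lay at 5.43 and 5.53, and Ccr7, which guides dendritic cells and T cells to lymph vessels, at 2.93 and 4.34.

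Promoters of 5 genes are shown because these genes had the largest differences of the gp130, CXC chemokine, GTPase, antiviral and Reg lists. Each line gives the 250 bases before the annotated start from RefSeq (GRCm38.p6), 5′ to 3′ on the gene's strand, at chr5:30012864-30013113 (plus strand) for Il6, chr5:92348890-92349139 (minus strand) for Cxcl10, chr3:142594597-142594846 (plus strand) for Gbp2b, chr3:151762892-151763141 (minus strand) for Ifi44l and chr6:78468875-78469124 (minus strand) for Reg3g. Capitals mark a match to the NF-kB motif, searched with 1 free position, in Il6, and to the interferon-stimulated response element, searched with 2 free positions, in Cxcl10 and Gbp2b. The match in Gbp2b reads on the opposite strand, and no searched motif matched in Ifi44l or Reg3g.
Il6: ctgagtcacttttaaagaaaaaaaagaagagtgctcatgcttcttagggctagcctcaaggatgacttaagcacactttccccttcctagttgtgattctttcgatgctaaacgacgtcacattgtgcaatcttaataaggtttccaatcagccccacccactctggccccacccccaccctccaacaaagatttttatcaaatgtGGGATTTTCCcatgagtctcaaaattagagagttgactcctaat
Cxcl10: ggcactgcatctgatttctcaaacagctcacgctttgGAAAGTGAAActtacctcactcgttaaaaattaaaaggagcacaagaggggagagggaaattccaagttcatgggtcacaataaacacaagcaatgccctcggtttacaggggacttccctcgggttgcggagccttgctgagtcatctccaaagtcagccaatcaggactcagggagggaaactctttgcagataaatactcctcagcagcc
Gbp2b: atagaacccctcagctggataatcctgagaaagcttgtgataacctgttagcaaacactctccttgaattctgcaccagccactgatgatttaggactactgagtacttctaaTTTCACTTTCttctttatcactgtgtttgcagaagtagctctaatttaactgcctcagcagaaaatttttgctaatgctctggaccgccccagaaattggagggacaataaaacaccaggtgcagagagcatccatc
Ifi44l: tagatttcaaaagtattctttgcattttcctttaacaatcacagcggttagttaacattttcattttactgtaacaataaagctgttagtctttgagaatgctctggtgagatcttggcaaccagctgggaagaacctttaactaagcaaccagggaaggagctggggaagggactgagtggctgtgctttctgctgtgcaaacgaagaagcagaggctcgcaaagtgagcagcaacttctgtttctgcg
Reg3g: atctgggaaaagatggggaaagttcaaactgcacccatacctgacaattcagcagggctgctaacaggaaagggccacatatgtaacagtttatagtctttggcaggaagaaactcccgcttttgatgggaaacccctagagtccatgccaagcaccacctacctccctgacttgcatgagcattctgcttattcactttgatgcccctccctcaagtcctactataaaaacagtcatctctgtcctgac

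The match in Il6 lay 44 to 35 bases before the start, that in Cxcl10 213 to 204 bases and that in Gbp2b 137 to 128 bases. Over promoters of the higher genes, 1.42% of 493 (7 promoters) held the NF-kB letters, against 0.437% of the 12577 promoters of kept genes. The interferon element was in 6.49% of the same 493 and in 2.62% of the promoters of kept genes. The STAT motif TTCNNNGAA was in 10.5% and 5.95%, and it overlapped the interferon element in 18 promoters of the whole table. The HNF4 motif CAAAGTCCA, also searched, was in 0.406% and 0.421%. Over the 154 promoters of the lower genes, the shares in the same order of motifs were 0%, 2.6%, 5.84% and 1.3%. Several promoters can belong to 1 gene, both strands were searched, and a match describes letters and not a bound site.

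Several guanylate-binding proteins and other interferon-gamma targets had higher values, while the wider antiviral group had a median of 0.00. Of 17 GTPase and target genes, 7 were higher by 2-fold or more and 0 lower, with a median of 0.81. Untreated, the same 17 genes had a median of 0.65, with 6 at least 2-fold higher and 1 lower, so the lean was not particular to DSS. Gbp2b had 3.18 and 6.85 untreated, 2.02 in WT and 8.39 in KO with DSS, and was thus high on both KO arrays. Gbp7, another of these vacuole-attacking GTPases, had 7.32 and 7.40 untreated, 6.47 in WT and 8.22 in KO. Ido1, which breaks down tryptophan, had 6.28 and 7.88 with DSS. Of 36 antiviral genes 4 were higher by 2-fold or more and 0 lower, and the KO DSS value was the lowest of the 4 arrays for 14. In the untreated pair this group had a median of 0.72, with 15 at least 2-fold higher. Ifi44l stood apart by genotype on both pairs, at 1.77 and 6.86 untreated and at 1.37 and 6.93 with DSS. Xaf1 had 7.26 and 9.34 untreated and 2.94 and 7.43 with DSS, and its other kept probe set differed by -1.05 with DSS, the opposite way.

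Some acute-phase genes had higher values and some antimicrobial lectins lower ones. Of 18 kept acute-phase and epithelial defence genes, 6 were higher by 2-fold or more and 0 lower, with a median of 0.74, or 0.32 over all 24 on the array, and 2 were kept only through the KO DSS array. Saa3, a serum amyloid made locally in inflamed tissue, had 4.63 and 6.52 untreated, 6.83 in WT and 10.04 in KO with DSS. Chil1, a chitinase-like protein, had 2.81 and 2.97 untreated, 2.71 in WT and 7.28 in KO. Of 14 kept Reg lectins and antimicrobial peptides, 5 were at least 2-fold lower and 1 higher, with a median of -0.64, or -0.19 over all 19 on the array. Reg3g, a lectin that binds Gram-positive bacteria, had 4.01 and 9.37 untreated, 11.10 in WT and 6.67 in KO with DSS. Ang4, an antibacterial ribonuclease, had 11.03 and 9.55 untreated, 11.06 in WT and 8.52 in KO. The member that was higher was Ly6d, which is also on the B cell list, at 5.29 and 3.80 untreated, 6.13 in WT and 8.23 in KO with DSS.

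Some matrix proteases and inhibitors had higher values in the KO. Of 21 kept, 7 were at least 2-fold higher, 0 lower and 14 under 2-fold apart, with a median of 0.40. Mmp3, the broad-acting stromelysin, had 1.80 and 1.58 untreated, 5.46 in WT and 8.21 in KO with DSS. Mmp10, a related stromelysin, had 4.99 and 7.04 with DSS, and the inhibitor Timp1 5.21 and 6.94. Proteases and their inhibitor were thus both above the untreated arrays in WT and higher again in KO. Of 14 plasmin and coagulation genes, 5 were at least 2-fold higher, of which F10 was kept only through the KO DSS array. Plat, which activates plasminogen, had 5.22 in WT and 7.20 in KO. The list of the Adamts12 family, which also holds ADAMTS-like genes and Comp, had a median of 0.15. Of its 13 kept genes, 1 was at least 2-fold higher. That was Adamts1, at 4.37 and 3.91 untreated, 5.08 in WT and 6.67 in KO with DSS. Comp, a substrate of ADAMTS12, lay at 4.11 in WT and 3.81 in KO.

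Many genes of activated fibroblasts had higher values in the KO. Of 34 kept, 13 were at least 2-fold higher and 1 lower, with a median of 0.80, and the KO DSS value was the highest of the 4 arrays for 28. Cemip, which depolymerises hyaluronan, had 1.62 and 1.58 untreated, 3.63 in WT and 6.97 in KO with DSS. Dcn, the collagen-binding proteoglycan decorin, had 8.91 and 8.56 untreated, 7.93 in WT and 9.95 in KO. Thbs1, a matricellular protein, had 5.37 and 7.09 with DSS. The matrix protein gene Mgp, a ranked gene outside this list, was at 6.93 in WT and 9.73 in KO. The member that was lower was Ccn3, at 6.67 and 2.38 untreated and 7.46 and 5.49 with DSS. Of 28 kept collagen genes 7 were at least 2-fold higher, with a median of 0.59. The basement membrane collagen Col4a1 had 8.39 in WT and 9.58 in KO, and Col1a1, the main fibrillar collagen, 6.72 and 7.19. The general fibroblast marker Pdgfra was 7.21 in WT and 7.80 in KO. Summed over the fibroblast list, the signal was 8545 and 5182 untreated and 6725 in WT and 10470 in KO with DSS.

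Some endothelial and leukocyte adhesion genes also had higher values. Of 24 kept, 6 were at least 2-fold higher and 0 lower, with a median of 0.70, and 3 had been kept only through the KO DSS array. Selp, the P-selectin that slows rolling leukocytes, had 3.24 and 3.32 untreated, 4.21 in WT and 7.16 in KO with DSS, and its 3 probe sets differed by 2.12 to 2.95. Icam1 and Vcam1, ligands of leukocyte integrins, had 5.25 and 5.83 in WT and 6.75 and 7.31 in KO. The pan-endothelial marker Pecam1 lay at 4.30 in WT and 5.17 in KO. Smooth muscle genes lay nearer to all genes, with a median of 0.13 and Myh11 at 8.96 and 9.05. Enteric neuron and glia genes had a median of 0.57 and the neuropeptide gene Vip had 6.75 in WT and 8.71 in KO, against 7.91 and 6.30 untreated. Several non-epithelial lists had medians of 0.5 or more together, and the part of the share of epithelium in each piece was not tested. Among broad epithelial genes, Cdh1, which encodes E-cadherin, lay at 10.33 in WT and 10.35 in KO. Epcam and Vil1 differed by -0.19 and -0.11.

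Goblet cell genes had lower values in the KO. Of 35 kept, 18 were at least 2-fold lower and 0 higher, with a median of -1.02. A difference below 0 was seen for 34, and the KO DSS value was the lowest of the 4 arrays for 27. Muc2, the gel-forming mucin of the colon, had 12.47 and 12.75 untreated, 12.49 in WT and 11.63 in KO with DSS. Retnlb, a resistin-like protein of goblet cells, had 11.87 and 10.40 untreated, 11.71 in WT and 9.81 in KO. Spdef, the transcription factor of goblet cell maturation, had 6.85 and 7.61 untreated, 6.37 in WT and 4.93 in KO. Agr2, a disulfide isomerase needed for mucin, had 11.47 and 11.40 untreated, 11.04 in WT and 9.67 in KO. Structural mucus proteins were mixed, with Fcgbp lower by 1.25 (11.34 in WT, 10.09 in KO) but Zg16 at 12.33 and 12.18 and Tff3 at 10.78 and 10.50. In the untreated pair the list had a median of -0.39, so it was below 0 in both pairs. The summed signal was 58600 and 37657 untreated, and 38222 in WT and 22777 in KO with DSS.

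**Figure D3:**
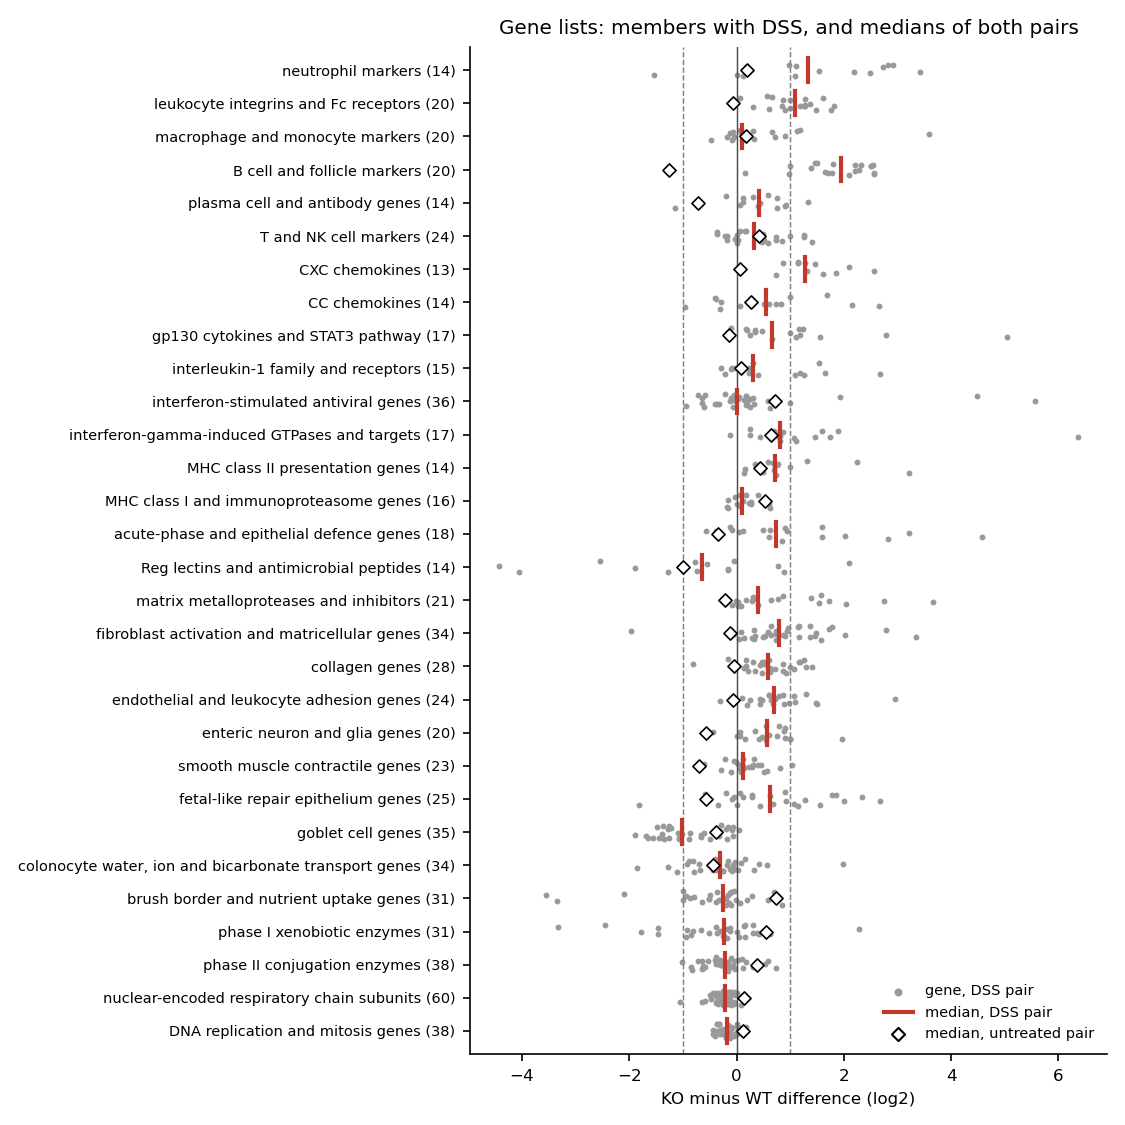
KO minus WT log2 differences (x axis) for 30 gene lists, with the number of kept genes in brackets. Grey points are genes of the DSS pair, the red bar is their median, the open diamond is the median of the untreated pair and dashed lines mark 2-fold. B cell, CXC chemokine and neutrophil lists lie furthest to the right and the goblet cell list furthest to the left.

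Absorptive epithelium showed smaller shifts over many genes. Of 34 kept water, ion and bicarbonate transport genes, 3 were lower by 2-fold or more and 1 higher, with a median of -0.30. Slc9a3, the sodium-proton exchanger of the apical membrane, had 7.98 and 8.94 untreated, 9.43 in WT and 7.58 in KO with DSS. Aqp8, a water channel of surface colonocytes, had 9.69 and 5.95 untreated, 9.26 in WT and 7.99 in KO. The single higher gene was Fxyd4, a regulator of the sodium pump, at 4.33 and 6.31. Of 31 brush border and uptake genes, 5 were at least 2-fold lower, with a median of -0.26, or -0.14 over all 43 on the array, and the untreated pair had a median of 0.74. Fabp2, the intestinal fatty acid-binding protein, had 6.72 and 10.62 untreated, 8.07 in WT and 4.51 in KO with DSS. The sulfate transporter Slc13a1 had 2.71 and 8.55 untreated, 5.01 in WT and 2.91 in KO. These genes were therefore high on the untreated KO array and intermediate on the WT DSS array. Among tight junction genes, Cldn15 had 7.14 in WT and 5.42 in KO, and Cldn4 6.28 and 7.58, and the group median was -0.13 with 2 of 23 at least 2-fold lower and 1 higher.

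Some genes of drug and steroid metabolism had lower values. Of 31 kept phase I enzymes, 5 were at least 2-fold lower and 1 higher, with a median of -0.23, or -0.15 over all 38 on the array. Cyp2c65, a cytochrome P450, had 3.88 and 10.29 untreated, 4.83 in WT and 2.38 in KO with DSS. Cyp4f14, which oxidises fatty acids and leukotrienes, had 7.27 and 8.83 untreated, 6.86 in WT and 5.39 in KO. The higher one was Aldh1a3, which makes retinoic acid, at 4.32 and 6.61. Of 23 kept steroid enzymes 4 were at least 2-fold lower and 1 higher, with a median of -0.09 that ran from -0.14 to 0.05 under the processing alternatives. Hsd17b13, a lipid droplet dehydrogenase, had 4.40 and 4.95 untreated, 5.33 in WT and 1.44 in KO, which is under the background limit, so it was lower by at least 3.65. Phase II enzymes had a median of -0.21 with 1 of 38 at least 2-fold lower.

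Several regional identity genes had differences of opposite sign in the 2 pairs. Hoxd13, the most posterior gene of its cluster, had 8.82 and 3.36 untreated, 4.22 in WT and 7.20 in KO with DSS. Hoxb13, another hindgut gene, had 9.47 and 2.48 untreated but 7.84 in WT and 8.40 in KO. Cdx2, the intestinal master regulator, had 7.34 in WT and 6.19 in KO, and Isx, a regulator of vitamin A uptake in the small intestine, had 6.09 and 4.52. Of 20 kept Hox genes 3 were higher by 2-fold or more and 0 lower, with a median of 0.28, or 0.12 over all 32 on the array, and of 19 regional transcription factors 2 were higher and 2 lower. Whether the pieces came from different positions along the colon was not tested.

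**Figure D4:**
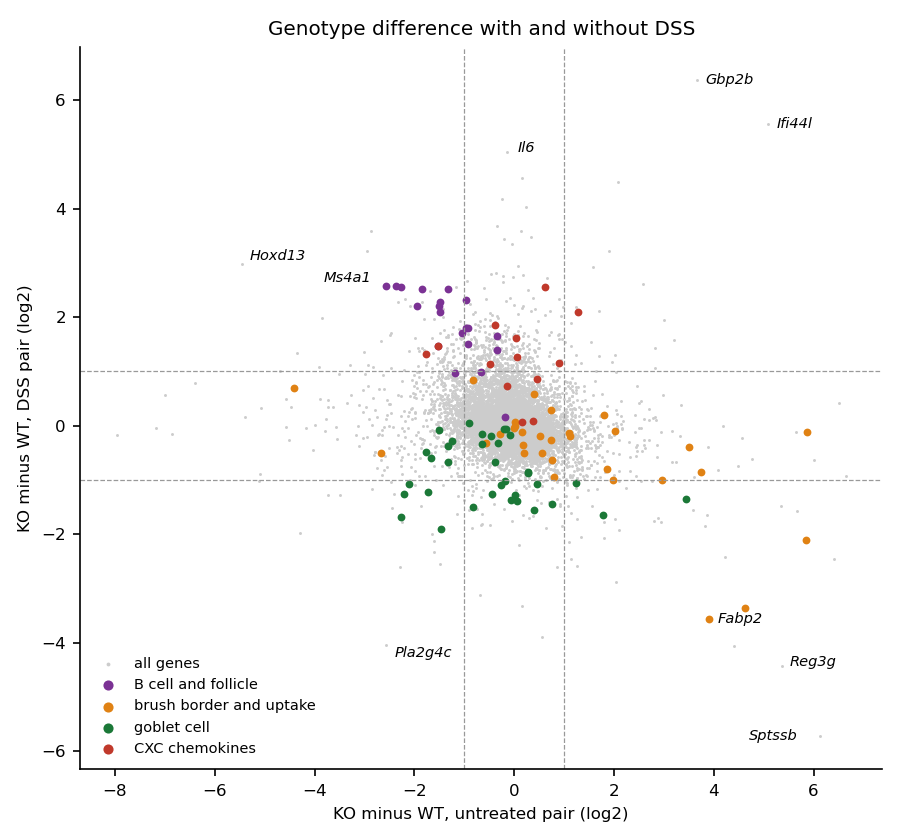
Each point is a gene, with the KO minus WT log2 difference of the untreated pair on the x axis and that of the DSS pair on the y axis, and dashed lines mark 2-fold. Most B cell genes lie at the upper left, several brush border genes at the lower right, 34 of 35 goblet cell genes below 0 and CXC chemokines above 0.

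The untreated and DSS pairs share no array. Over the 12189 genes the KO minus WT differences of the 2 pairs had a Pearson r of -0.224 and a Spearman rho of -0.262 across genes, which are not independent replicates. Of the 514 higher genes, 24 (4.67%) were also at least 2-fold higher in the untreated KO, 106 (20.6%) were at least 2-fold lower and 384 (74.7%) were under 2-fold apart. Of the 147 lower genes, 29 (19.7%) were also lower untreated and 47 (32.0%) were higher. Over the full set of 12189, the untreated shares were 3.43% for higher and 5.99% for lower. The 4.67% thus lay near its share in the full set, while 20.6%, 19.7% and 32.0% lay above theirs. Genes lower in the KO in both pairs included Pla2g4c, a phospholipase, which had 8.37 and 5.80 untreated and 6.43 and 2.40 with DSS.

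Some fetal-like repair genes of the injured epithelium had higher values. Of 25 kept, 9 were at least 2-fold higher and 1 lower, with a median of 0.63, or 0.54 over all 26 on the array. The median of the kept genes ran from 0.13 to 0.66 under the processing alternatives, and was -0.56 untreated. Some members, such as Ccn2, are also on the fibroblast list. Ptgs2, the inducible cyclooxygenase, had 4.42 and 2.24 untreated, 5.46 in WT and 7.80 in KO with DSS. Clu, a secreted chaperone that marks revival stem cells, had 7.93 and 6.50 untreated, 6.96 in WT and 8.97 in KO. The lower one was Epgn, a ligand of the EGF receptor, at 5.85 in WT and 4.04 in KO. Crypt stem cell genes had a median of -0.19, with 0 of 22 at least 2-fold apart and Lgr5 at 3.49 and 2.99. Proliferation genes had a median of -0.17, with 0 of 38 at least 2-fold apart, and Mki67 lay at 9.23 in WT and 9.10 in KO, above 8.04 and 7.74 untreated. Of 22 kept signals from the stroma to the crypt, 5 were at least 2-fold higher and 0 lower, with a median of 0.40, or 0.27 over all 35 on the array, among them Rspo3, which sustains Wnt signalling, at 4.95 in WT and 6.38 in KO, and Fgf7, which acts on epithelium, at 4.80 and 6.31.

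Most metabolic groups had medians near that of all genes, but respiratory chain genes nearly all lay slightly lower in the KO. Of 60 respiratory chain genes, 57 had a difference below 0, against 52.6% of all genes, with a median of -0.22. The KO DSS value was the lowest of the 4 arrays for 47, and the untreated median was 0.14. Cox7c was the 1 gene at least 2-fold lower (5.30 in WT, 4.24 in KO). Fatty acid oxidation genes had a median of -0.07, and Angptl4, an inhibitor of lipoprotein lipase, was the 1 of 31 at least 2-fold higher, at 4.44 and 5.89. Heat shock genes had a median of -0.04 and unfolded protein genes -0.20, with 0 of 28 of the latter at least 2-fold apart. Sphingolipid genes had a median of 0.00. Their extreme was Sptssb, a subunit that activates serine palmitoyltransferase, which had 3.65 and 9.78 untreated, 8.81 in WT and 3.09 in KO with DSS. The adipocyte hormone gene Adipoq had 5.01 in WT and 2.14 in KO and the adipocyte list 2 of 12 lower, with a summed signal of 692 and 609.

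Lipid mediator and hormone genes were mixed, and the stress and clock lists held few genes 2-fold apart. Of 27 kept prostaglandin and leukotriene genes, 5 were higher by 2-fold or more and 2 lower, with a median of -0.03. The receptor Ptger3 for prostaglandin E had 3.32 in WT and 4.98 in KO, and Pla2g5, a secreted phospholipase, 6.79 and 5.54. Of 15 enteroendocrine genes, 3 were lower by 2-fold or more and 1 higher, with a median of -0.48, or -0.12 over all 25 on the array, against 0.78 untreated over those kept. Gcg, the precursor of glucagon-like peptides, had 6.09 and 7.12 untreated, 7.61 in WT and 6.32 in KO with DSS. Hypoxia genes had a median of 0.04, with 2 of 26 at least 2-fold higher and 1 lower. The lower one was Car12, a carbonic anhydrase, at 7.03 and 5.27. Cell death genes had 2 of 25 at least 2-fold higher and a median of 0.14. Immediate-early genes had 2 of 28 higher and a median of 0.34, with Fos at 9.90 in WT and 9.39 in KO. Clock genes had 1 of 17 higher and a median of 0.40. In the full set of 12189, the 2-fold cut was passed upward by 4.22% and downward by 1.21%. The small counts in the hypoxia, cell death, immediate-early and clock lists were not tested against these shares. Arntl, which encodes BMAL1, had 5.92 in WT and 5.07 in KO, and its output gene Dbp 6.20 and 7.14, and the part of the hour of collection was not tested. Markers of neighbouring tissue did not stand apart, with 0 of 7 pancreas genes and 0 of 4 squamous genes at least 2-fold apart and medians of -0.17 and -0.22, or -0.08 and 0.00 over all on the array.

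Repeat probe sets compare probes only, since they read the same RNA on the same arrays. Of the 514 higher genes, 193 had other kept probe sets, and all of these pointed the same way for 180 (93.3%). The median of the others was itself at least 2-fold for 94 (48.7%). Of the 147 lower genes, 48 had other kept probe sets, which pointed the same way for 47 (97.9%).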

How the data were processed

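The deposited table held 45101 probe sets on 4 Affymetrix arrays of mouse distal colon, 1 for each of 4 groups taken from the array titles. The authors' deposited values were used as log2 signals, as their range of 0.16 to 13.23 allows. The sources used here do not give their summarisation or normalisation. Column medians lay between 3.42 and 3.46. Probe sets were named from the platform annotation, with symbols updated by gene number through RefSeq (GRCm38.p6). Of them 34945 had 1 symbol, of which 34741 matched by number, 932 had several symbols, 9160 were unnamed and 64 were controls. Those with 1 symbol that lay above the 50th percentile of an array on at least 1 array were kept.

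Differences were KO minus WT on the log2 scale, described at 2-fold with no test. The rule for naming genes took Adamts12, the ends of the ranking (20 each way), and from each of 62 gene lists the first member, up to 6 members with the largest differences and up to 5 exceptions. Other members of the lists were named after their values were seen: Agr2, Fcgbp, Zg16, Tff3, Cdh1, Epcam, Ltf, Csf3r, Mpo, Cxcr2 and Il17a. The members and lists were chosen with earlier results of these data known. Alternatives were quantile normalisation, median centring, other filters, a floor at the array's median, the mean over probe sets, and dropping probe sets shared by transcripts. The code was tested on simulated data. Python 3.11.15, numpy 2.4.6, pandas 2.3.3 and matplotlib 3.10.9 were used.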

Additional observations from a re-analysis of the deposited data

Results flagged for a closer look

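These results had KO minus WT differences that ran in opposite directions with and without DSS. Every sample is 1 array, so the difference between the pairs was not tested. Values are log2 differences with DSS, then without.

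Among genes higher in the KO with DSS, Hoxd13 had 2.98 and -5.46, Ighv14-2, an antibody variable segment, 3.58 and -2.86, and H2-Ob 3.22 and -2.94. The B cell and follicle list had a median of 1.95 and -1.26, the fetal-like repair list 0.63 and -0.56, and the enteric neuron and glia list 0.57 and -0.57. With DSS, the median of the fetal-like list ran from 0.13 to 0.66 under the processing alternatives.

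Among genes lower in the KO with DSS, Sptssb had -5.72 and 6.13, Reg3g -4.43 and 5.36, Reg3b -4.05 and 4.41, Fabp2 -3.56 and 3.90, and Slc3a1, an amino acid transporter subunit, -3.35 and 4.62. Cyp2c65 had -2.45 and 6.41, Aldh1a7 -2.46 and 1.13, Adipoq -2.87 and 2.04, Amph -2.59 and 1.25, and Rassf4 -2.14 and 1.09.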

How the results depend on the processing

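The count of genes at least 2-fold higher in the KO with DSS was 514 and was 329 with a filter at the 75th percentile of the array, which left 8039 genes in place of 12189, and 325 of the 329 were among the 514. The other alternatives gave 433 to 537, and the count of lower genes stayed between 117 and 151. Of 558 list medians under these alternatives, 132 moved by more than the probe set SD over the square root of the list size, and of 3319 values of named genes 122 moved by more than that SD. No difference of a named gene or list that was called changed sign under these alternatives. No paired analysis was possible because each group is 1 array. For the same reason no array could be left out. Depth has no counterpart here, and signal over background limits Il6, Ifi44l and Hsd17b13, of which 1 side lies under 1.68.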

Other observations

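Noncoding RNAs of the imprinted Dlk1-Meg3 region, chosen after their values were seen, were lower in the KO with DSS. Meg3 had 11 of 11 probe sets below 0, of which 9 were at least 2-fold lower, with a median of -1.80. Rian had 3 of 3 below 0 with a median of -1.80, and Mirg 2 of 2 with a median of -1.32. Dlk1, the protein-coding gene of the region, was lower by 2.00 on its kept probe set, and its other probe set, which was not kept, had 1.73 in both. In the untreated pair the median over the Meg3 probe sets was -0.88, with 8 below 0, and Dlk1 had -1.65.

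Among 3473 kept probe sets without a gene name, 146 (4.2%) were at least 2-fold higher in the KO with DSS and 59 (1.7%) lower. Single kept probe sets stood behind Tmem267, at 1.87 in WT and 6.05 in KO with DSS, Mid1, at 3.07 and 6.54, Rbm45, at 6.54 and 3.43, and Taf15, at 4.85 and 2.24. Dimmer probe sets that were not kept differed by 0.06 and 0.25 for Mid1 and by -0.78 for Taf15. The kept Taf15 probe set had 4.54 in WT and 2.25 in KO without DSS, so its 2 genotypes lay apart in both pairs.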
